A study of Rattus norvegicus with 20 samples.

Results

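Tight junctions seal the space between neighbouring epithelial cells and limit what passes between them. Occludin, claudins and the junctional adhesion molecule span the membrane, tricellulin closes the corners where cells meet, and the zonula occludens proteins tie these to the actin skeleton from the cytoplasmic side. In the oesophagus they belong to the stratified squamous lining, which meets acid and bile when gastric or duodenal contents flow back. The set described here holds 10 tight junction genes, listed by symbol and found by matching the gene name of each array feature. They are represented by 11 probes, since Tjp1 has 2, and all 10 genes passed the filter on dim probes among 12849 genes tested.

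The tissue came from the oesophagus of Wistar rats, and its RNA was read on Agilent arrays with a single dye, for 4 animals per group. Untreated rats had reflux oesophagitis induced by surgery and received no drug. Low-dose and high-dose STW5 rats had the same operation and received 0.5 or 2 ml/kg of STW5, a liquid combination of medicinal plant extracts. Omeprazole rats had the operation and received 30 mg/kg of this proton pump inhibitor, which blocks acid secretion in the stomach. Sham rats had a sham operation, and no drug is named for them. Drugs were given over 7 days before surgery and then on until the tissue was taken 10 days after it. The labels give no age or sex, and they describe the sample as oesophageal tissue, so the epithelium, connective tissue, vessels and muscle of the wall were measured together. In such bulk samples, fewer cells of a type and less RNA per cell cannot be told apart.

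Levels are given on the log2 scale relative to the 75th percentile of the same array, so 1 unit is a doubling of signal and 0 is that percentile. A level is compared only between samples, not between probes. Features well above background made up 61.5% to 70.5% of each array. For low-dose replicates 1 and 2 the difference between arrays was only 1.13 times that between repeat spots, against 2.45 times or more for all other pairs within a group, and they were averaged as 1 sample, which left 19 samples and n = 3 for low-dose STW5. Sham replicate 2 and omeprazole replicate 2 were closer (2.16) than any other pair between groups. Sham replicate 4 stood apart in 12 markers of simple or glandular epithelium, whose summed level was 5.43 there against 1.13 to 1.85 in the other 3 sham samples. Slide 1 held the sham arrays, slide 2 the untreated and low-dose ones and slide 3 those of high-dose and omeprazole rats, so slide and group cannot be told apart in any comparison other than low dose against untreated and high dose against omeprazole. The dose labels are unsettled: in a second deposited table all 8 STW5 columns hold the values of the other dose, and doses are given here as the scanner files are labelled.

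The probes decide which stretch of each transcript was read. Each is 60 bases long, and 4 of the 11 were taken to lie within the coding sequence from their position in the transcript, since no transcript annotation was used here to check it. Those 4 are shown because Tjp1, Tjp3 and Marveld2 carry much of the result, and because Cldn7 lay near background. The Tjp3 probe has 1 spot per array, so its level has no repeat spot, while the other probes have 2 or 10. All letters are in lower case since no part of a probe is set apart.
Tjp1, coding-region probe: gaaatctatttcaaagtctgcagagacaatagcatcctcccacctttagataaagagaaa
Tjp3: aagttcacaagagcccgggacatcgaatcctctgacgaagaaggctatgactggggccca
Marveld2: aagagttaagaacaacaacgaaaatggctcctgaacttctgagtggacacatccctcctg
Cldn7: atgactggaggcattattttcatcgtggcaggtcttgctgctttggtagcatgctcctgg
In the rn4 assembly given in the array files, the Tjp1 probe lies on the minus strand at chr1:119689604-119689663, the Tjp3 probe on the plus strand at chr7:9929908-9929967 and the Marveld2 probe on the minus strand at chr2:31407375-31407434. The Cldn7 probe, on the plus strand, spans 171 bases at chr10:56812476-56812646 and so crosses an intron. The second Tjp1 probe lies at chr1:119685220-119685279 and starts 1135 bases further along the transcript, and is called the 3′-end probe. It and the probes of the other 6 genes are not printed.

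In the rat assembly GRCr8 the genes are spread over 8 chromosomes, with neighbours on 2 of them. Ocln (chromosome 2, 33391303 to 33442207) and Marveld2 (33474750 to 33498225) lie close together. Cldn3 (chromosome 12, 27345075 to 27346547) and Cldn4 (27388160 to 27389958) also do. Tjp1 lies on chromosome 1 (128260330 to 128505018), Tjp3 on 7 (9078757 to 9097003), Cldn7 on 10 (55188670 to 55190871), Cldn1 on 11 (87926376 to 87941533), F11r on 13 (86406229 to 86429819) and Cldn23 on 16 (63117045 to 63118769).

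Untreated oesophagitis was compared with sham surgery to see how the junction genes differed. The groups lay on different slides, so the operation and the slide cannot be told apart here. Of the 10 genes 7 fell and none rose at an adjusted p under 0.05 (limma, Benjamini-Hochberg over all 12849 genes). Of all genes tested 18.3% fell. The falls lay between log2 0.74 and 2.11, and the median change of the 10 genes was -0.99, against -0.08 over all genes. The 7 genes were Cldn3, Cldn23, Cldn4, Tjp3, Tjp1, Marveld2 and Ocln, so claudins, plaque proteins, tricellulin and occludin were all among them. In 6 of the 10 genes every untreated sample lay below every sham sample, which held for 12.7% of all genes.

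Occludin, encoded by Ocln, is a membrane-spanning protein along the whole junction strand. Its level was -1.91, -1.34, -2.27 and -1.50 in untreated rats, against -0.69, -1.07, -0.51 and -1.15 in sham rats. The untreated samples lay below all sham samples. Ocln fell by log2 0.90 ± 0.25 (SE, n = 4 and 4, adjusted p = 0.0126), or 1.86-fold.

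Marveld2 encodes tricellulin, the protein of tricellular contacts. Its level was -5.30, -4.81, -5.92 and -4.76 in untreated rats, against -3.44, -4.20, -3.96 and -4.20 in sham rats. The groups did not overlap, and the gene fell by 1.24 ± 0.24 (SE, adjusted p = 0.00120), or 2.37-fold. Marveld2 was dim: its unscaled signal was 14.1 to 30.6 in untreated rats, against 38.0 to 52.8 in sham rats. In untreated replicate 3 only 50% of its spots were well above background.

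Among the claudins, which set the charge and size selectivity of the junction, Cldn3 changed most in log2 terms. Cldn3 encodes a barrier-forming claudin. Its level was -2.38, -1.86, -3.79 and -1.35 in untreated rats, against -1.04, -0.63, 0.65 and 0.06 in sham rats. All untreated samples lay below the sham samples, with untreated replicate 3 lowest, and the fall was 2.11 ± 0.51 (SE, adjusted p = 0.00523), or 4.30-fold. Cldn23 encodes a less studied claudin of differentiated epithelium. Its level was -1.63, -1.34, -3.05 and -1.56 in untreated rats, against -0.30, -0.24, -0.29 and -1.01 in sham rats. Again no sample overlapped, although sham replicate 4 lay well below the other sham samples, and the fall was 1.43 ± 0.31 (SE, adjusted p = 0.00285). Cldn4 encodes a claudin that limits the passage of sodium ions. Its level was 0.93, 2.03, 1.95 and 0.99 in untreated rats, against 2.67, 2.63, 2.66 and 2.24 in sham rats. The untreated samples formed a high and a low pair, both below sham, and the fall was 1.07 ± 0.27 (SE, adjusted p = 0.00722).

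Tjp3 and Tjp1 encode ZO-3 and ZO-1, scaffolds that bind claudins and occludin inside the cell. The Tjp3 level was -0.89, -0.33, -1.72 and -0.41 in untreated rats, against 0.98, 0.25, 0.75 and 0.16 in sham rats. The groups were apart, and Tjp3 fell by 1.37 ± 0.26 (SE, adjusted p = 0.00108), or 2.59-fold. Tjp1 at its 3′-end probe was 0.37, 0.50, -0.53 and -0.01 in untreated rats, against 1.09, 1.08, 0.73 and 0.38 in sham rats. Here untreated replicate 2 lay above the lowest sham sample, and the fall was 0.74 ± 0.25 (SE, adjusted p = 0.0292). This smallest of the 7 falls lost its call when sham replicate 1, 2 or 3 or untreated replicate 3 or 4 was left out (changes of -0.54 to -0.77) and when only these 2 groups were fitted (adjusted p = 0.0904).

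Cldn1, Cldn7 and F11r were not called in this or any other comparison. Cldn1, for a claudin of the epidermal barrier, ranged from -1.45 to 0.56 in untreated rats and from -0.60 to 0.38 in sham rats, a change of -0.47 with a 95% interval of -1.28 to 0.35. F11r, for junctional adhesion molecule A, ranged from -1.03 to -0.26 in untreated rats and from -1.09 to 0.38 in sham rats, a change of -0.44 (95% interval -1.11 to 0.23). Cldn7, a claudin also found along the lateral membrane, ranged from -5.70 to -4.28 in untreated rats and from -5.45 to -3.85 in sham rats. It was well above background in 3 of the 4 samples of each of these groups, and its change of -0.51 has an interval of -1.55 to 0.54. These intervals include falls as large as that of Tjp3 for Cldn7 and as that of Ocln for all 3, so they do not show that these genes held steady.

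**Figure D1:**
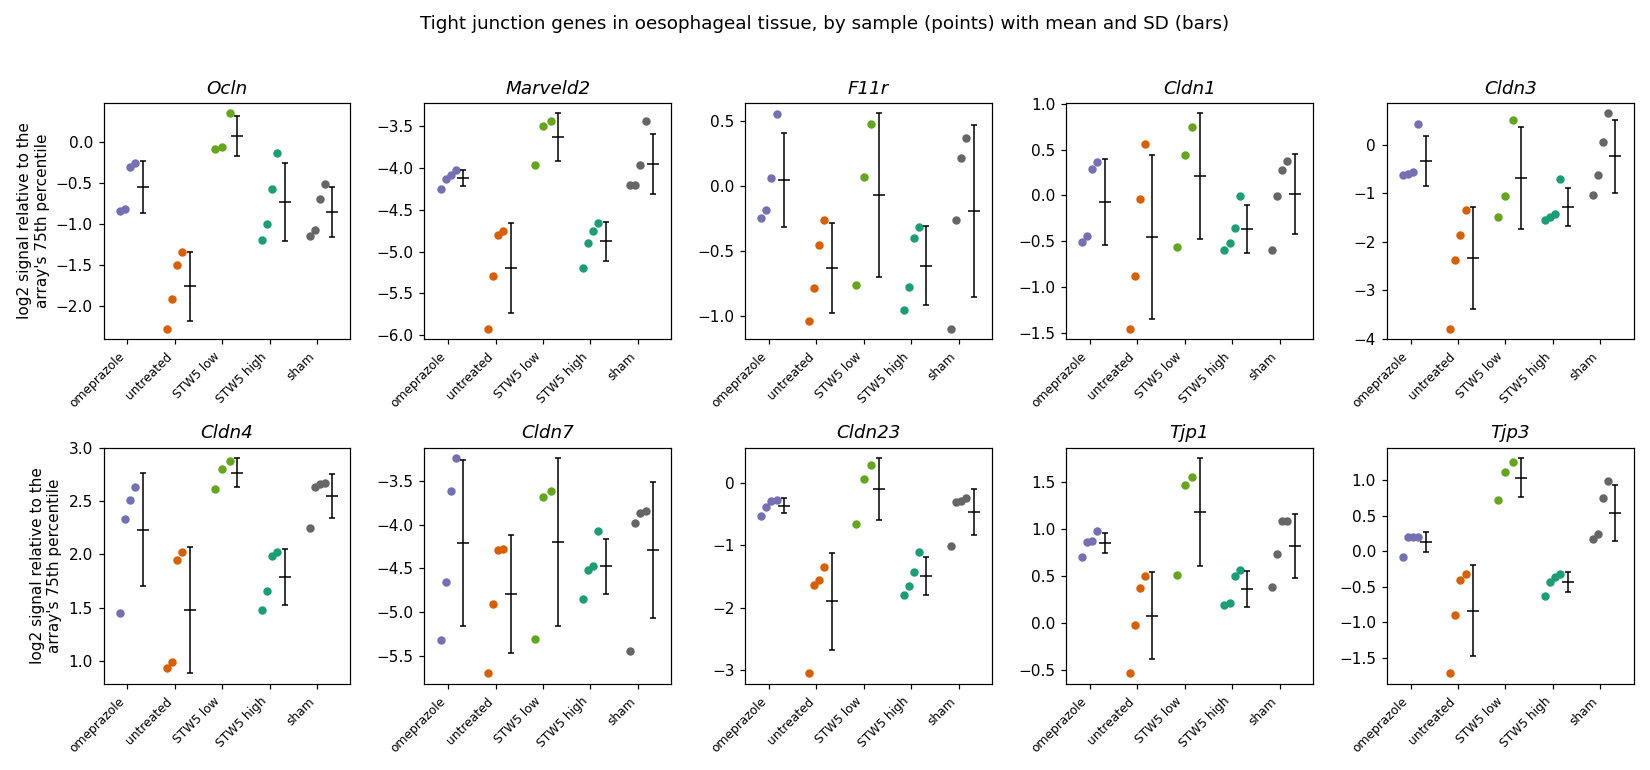
Level of each gene (log2 signal relative to the 75th percentile of the array) in each of 19 samples, by group, with the mean and SD beside the points; each panel has its own vertical axis. All 4 untreated samples lie below all 4 sham samples in Ocln, Marveld2, Cldn3, Cldn4, Cldn23 and Tjp3, while Tjp1, Cldn1, Cldn7 and F11r overlap between these groups.

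Low-dose STW5 was compared with untreated oesophagitis to see whether the junction genes differed under the drug, and both groups shared a slide. Of the 10 genes 7 rose at the low dose, against 21.7% of all genes tested: Ocln, Marveld2, Cldn3, Cldn4, Cldn23, Tjp1 and Tjp3. The median change was 1.43, against 0.16 over all genes, and in 6 of the genes no low-dose sample overlapped an untreated one (21.8% of all genes). These changes, those against sham above and those of the other drug groups below share the untreated samples and so are not independent of each other. Fitted with only the 2 groups of this slide, 5 of the 7 genes were called, without Tjp1 (adjusted p = 0.0608) and Cldn3 (adjusted p = 0.110), against 21.2% of all genes in either direction.

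Tjp3 and Ocln changed most. Tjp3 was at 1.12, 1.25 and 0.72 in low-dose rats, against -0.89, -0.33, -1.72 and -0.41 in untreated rats, and rose by 1.87 ± 0.28 (SE, n = 3 and 4, limma adjusted p = 0.000279), or 3.65-fold. Ocln was at 0.34, -0.06 and -0.08 in low-dose rats, against -1.91, -1.34, -2.27 and -1.50 in untreated rats, and rose by 1.82 ± 0.27 (SE, adjusted p = 0.000279), or 3.53-fold. In both genes all low-dose samples lay above all untreated ones.

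Cldn23 was at 0.07, -0.66 and 0.29 in low-dose rats, against -1.34 or less in untreated rats, and rose by 1.80 ± 0.34 (SE, adjusted p = 0.000817). Marveld2 was at -3.44, -3.49 and -3.96 in low-dose rats, against -4.76 or less in untreated rats, and rose by 1.56 ± 0.26 (SE, adjusted p = 0.000398). Cldn4 was at 2.81, 2.88 and 2.62 in low-dose rats, against at most 2.03 in untreated rats, and rose by 1.29 ± 0.30 (SE, adjusted p = 0.00299). Low-dose samples of these 3 genes were again all above the untreated ones.

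Tjp1 at the 3′-end probe was at 1.46, 1.55 and 0.52 in low-dose rats, against at most 0.50 in untreated rats, and rose by 1.10 ± 0.27 (SE, adjusted p = 0.00439). Cldn3 was at -1.06, -1.49 and 0.50 in low-dose rats, against -2.38, -1.86, -3.79 and -1.35 in untreated rats. Low-dose replicate 3 lay within the untreated range, and the rise of 1.66 ± 0.55 (SE, adjusted p = 0.0253) was no longer called without low-dose replicate 4 (1.07) or untreated replicate 3 (1.18). Among the 3 genes that were not called, the changes were 0.66 for Cldn1 (95% interval -0.22 to 1.54), 0.56 for F11r (-0.16 to 1.28) and 0.59 for Cldn7 (-0.54 to 1.72).

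At the high dose, 1 of the 10 genes, Ocln, rose against untreated rats with Tjp1 taken at its 3′-end probe, and 4.39% of all genes did. The coding-region probe of Tjp1, described further on, also rose, and with the mean over its probes Tjp1 was called as well (0.94, adjusted p = 0.0478). Ocln was at -0.13, -1.005, -1.20 and -0.58 in high-dose rats, against -1.91, -1.34, -2.27 and -1.50 in untreated rats. All 4 high-dose samples lay above the untreated ones, as in 8.95% of all genes, and the rise was 1.03 ± 0.25 (SE, n = 4 and 4, limma adjusted p = 0.0217), or 2.04-fold. That call was lost without high-dose replicate 1 (0.83) or 4 (0.98), without untreated replicate 1 (0.98) or 3 (0.86), and when only these 2 groups were fitted.

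Cldn3 changed as much in value, by 1.06, but with a wider 95% interval of -0.02 to 2.13. Its levels were -1.49, -0.71, -1.42 and -1.55 in high-dose rats, against -2.38, -1.86, -3.79 and -1.35 in untreated rats, and the groups overlapped. The other 8 genes, with Tjp1 at its 3′-end probe, changed by 0.02 to 0.40, and the median over the 10 genes was 0.32, against -0.02 over all genes. For Tjp3 the interval of the change was -0.14 to 0.94 and for Marveld2 -0.18 to 0.82.

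Omeprazole was compared with untreated oesophagitis as the acid-suppressing treatment. Here 7 genes rose, against 15.1% of all genes tested: Cldn3, Cldn23, Cldn4, Ocln, Marveld2, Tjp3 and Tjp1. The median change was 0.87, against 0.09 over all genes. In 7 genes the groups did not overlap, against 14.9% of all genes; these include F11r, which was not called, and leave out Cldn4, which was.

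Cldn3 rose most. It was at -0.62, -0.59, -0.56 and 0.43 in omeprazole rats, against -2.38, -1.86, -3.79 and -1.35 in untreated rats, and rose by 2.01 ± 0.51 (SE, n = 4 and 4, limma adjusted p = 0.00872), or 4.03-fold. Cldn23 was at -0.53, -0.26, -0.29 and -0.38 in omeprazole rats, against -1.34 or less in untreated rats, and rose by 1.53 ± 0.31 (SE, adjusted p = 0.00256). The 4 omeprazole samples of Cldn23 lay close together, with an SD of 0.12 against 0.78 in untreated rats.

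Ocln was at -0.82, -0.31, -0.84 and -0.25 in omeprazole rats, all above the untreated samples, and rose by 1.20 ± 0.25 (SE, adjusted p = 0.00309). Marveld2 was at -4.02, -4.25, -4.08 and -4.13 in omeprazole rats, also without overlap, and rose by 1.07 ± 0.24 (SE, adjusted p = 0.00395). Tjp3 was at -0.08, 0.20, 0.19 and 0.20 in omeprazole rats, against at most -0.33 in untreated rats, and rose by 0.97 ± 0.26 (SE, adjusted p = 0.0112), a call lost when only these 2 groups were fitted (adjusted p = 0.0524). These 3 genes thus differed in the same direction in all 4 samples.

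The smallest rises were those of Tjp1 and Cldn4. Tjp1 at the 3′-end probe was at 0.86, 0.97, 0.87 and 0.71 in omeprazole rats and rose by 0.77 ± 0.25 (SE, adjusted p = 0.0287). That call was lost without untreated replicate 3 (0.57) or 4 (0.74) or without omeprazole replicate 1 (0.77), 2 (0.73) or 3 (0.77). Cldn4 was at 1.45, 2.64, 2.51 and 2.33 in omeprazole rats, against 0.93, 2.03, 1.95 and 0.99 in untreated rats, so that replicate 1 lay inside the untreated range. Its rise of 0.76 ± 0.27 had an adjusted p of 0.0497, just under the threshold. It was no longer called without untreated replicate 1 (0.58) or 4 (0.60) or without omeprazole replicate 2 (0.62), 3 (0.67) or 4 (0.72), nor when only these 2 groups were fitted (adjusted p = 0.158). F11r differed by 0.68 (95% interval 0.01 to 1.35, adjusted p = 0.122), Cldn7 by 0.59 (-0.46 to 1.63) and Cldn1 by 0.38 (-0.44 to 1.20).

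**Figure D2:**
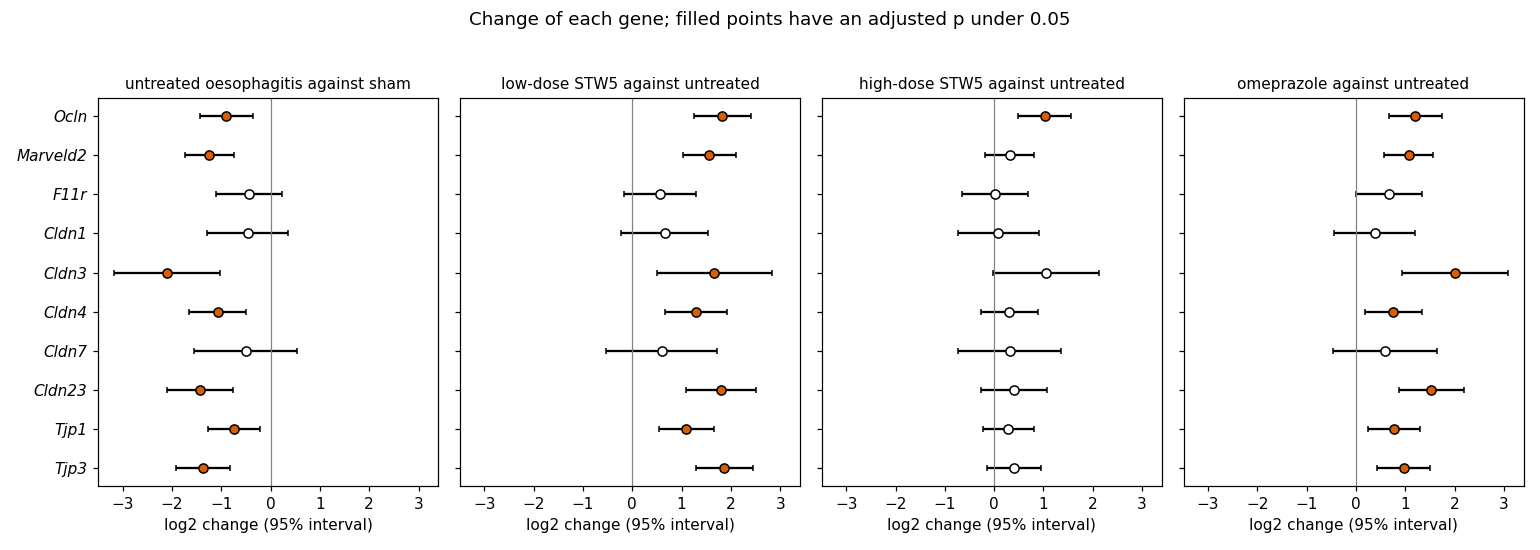
Change of each gene on the log2 scale with its 95% interval in 4 comparisons; filled points have an adjusted p under 0.05. Filled points number 7 left of 0 in untreated against sham rats, 7 right of 0 each in low-dose STW5 and omeprazole against untreated rats, and 1, Ocln, at the high dose; all 4 comparisons share the untreated samples.

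The drug groups were also set against sham rats, on other slides. No junction gene was called in low-dose rats, where 1 gene of all those tested was called (0.00778%), and only Ocln had an unadjusted p under 0.05. Ocln was at 0.34, -0.06 and -0.08 in low-dose rats, against -0.69, -1.07, -0.51 and -1.15 in sham rats. It thus lay above every sham sample, as 3.88% of genes did, with a change of 0.92 ± 0.27 (SE, n = 3 and 4, limma adjusted p = 0.513). The median change of the 10 genes was 0.27, against 0.07 over all genes.

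In omeprazole rats no junction gene was called by limma against sham rats and 0 had an unadjusted p under 0.05, against 1.12% of all genes called. Their changes ran from -0.40 for Tjp3 (95% interval -0.95 to 0.14) to 0.30 for Ocln (-0.23 to 0.84), with a median of -0.03. For Cldn3 the interval was still wide, at -1.17 to 0.98.

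In high-dose rats 2 genes were lower than in sham rats, Tjp3 and Marveld2, against 2.17% of all genes. Tjp3 was at -0.63, -0.36, -0.43 and -0.33 in high-dose rats, against 0.98, 0.25, 0.75 and 0.16 in sham rats, and was lower by -0.97 ± 0.26 (SE, n = 4 and 4, limma adjusted p = 0.0312). Marveld2 was at -4.66, -4.76, -5.20 and -4.90 in high-dose rats, against -3.44, -4.20, -3.96 and -4.20 in sham rats, and was lower by -0.92 ± 0.24 (SE, adjusted p = 0.0275). Neither gene overlapped between the groups, nor did Cldn4 (-0.76, adjusted p = 0.0930) or Cldn23 (-1.03, adjusted p = 0.0536), which makes 4 of 10 genes, against 8.61% of all genes. Both calls lay near the threshold: without sham replicate 1, sham replicate 3, or high-dose replicate 2, 3 or 4, neither of them passed. With 1 sample left out the changes stayed at -1.10 to -0.82 for Tjp3 and -1.01 to -0.755 for Marveld2. Without sham replicate 4 Cldn23 was called as well, at -1.21.

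The 2 STW5 doses were compared with each other, and 6 genes were lower at the high dose, against 13.2% of all genes. They were Tjp3, Cldn23, Marveld2, Cldn4, Tjp1 and Ocln, and the median change over the 10 genes was -0.80, against -0.15 over all genes. Tjp3 was at -0.63, -0.36, -0.43 and -0.33 in high-dose rats, against 1.12, 1.25 and 0.72 in low-dose rats, a change of -1.47 ± 0.28 (SE, n = 4 and 3, limma adjusted p = 0.00302). Cldn23 was at -1.10, -1.42, -1.65 and -1.80 in high-dose rats, against 0.07, -0.66 and 0.29 in low-dose rats, a change of -1.40 ± 0.34 (SE, adjusted p = 0.0101). No high-dose sample of either gene reached the low-dose samples.

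Marveld2 changed by -1.24 ± 0.26 (SE, adjusted p = 0.00487) and Cldn4 by -0.98 ± 0.30 (SE, adjusted p = 0.0260), also without overlap. Ocln changed by -0.79 ± 0.27 (SE, adjusted p = 0.0455) without overlap and Tjp1 by -0.81 ± 0.27 (SE, adjusted p = 0.0379) with it. The 5 genes without overlap compare with 20.8% of all genes. The count fell to 2 without the averaged low-dose replicates 1 and 2, and to 3 without low-dose replicate 3 or high-dose replicate 2 or 3. Without high-dose replicate 4 Ocln (-0.84) and Tjp1 (-0.76) were not called, and without high-dose replicate 1 Tjp1 (-0.75) was not. Both also missed the threshold when only the 2 groups were fitted (adjusted p = 0.0705 and 0.0639). Since the second deposited table assigns the doses the other way round, which dose is the lower in expression is not settled by these files.

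High-dose STW5 and omeprazole rats shared slide 3. No junction gene was called between them, against 0.210% of all genes, and 3 had an unadjusted limma p under 0.05: Cldn23, Marveld2 and Tjp3. In 6 of 10 genes every high-dose sample lay below every omeprazole sample, against 10.7% of all genes. Cldn23 was at -1.10, -1.42, -1.65 and -1.80 in high-dose rats, against -0.53, -0.26, -0.29 and -0.38 in omeprazole rats, a change of -1.13 ± 0.31 (SE, n = 4 and 4, limma adjusted p = 0.138). Marveld2 changed by -0.75 ± 0.24 (SE, adjusted p = 0.165) and Tjp3 by -0.57 ± 0.26 (SE, adjusted p = 0.259). When only the arrays of this slide were fitted, these 3 genes were called, with adjusted p = 0.00938, 0.0189 and 0.0286 in limma, and so were 9.06% of all genes.

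Over the 5 groups, the mean was lowest in untreated rats in all 10 genes, although high-dose samples overlapped the untreated ones in each gene other than Ocln. The mean was highest in low-dose rats in 8 of the 10, the exceptions being Cldn3, with sham rats highest (-0.24 ± 0.75, SD, against -0.68 ± 1.05 in low-dose rats), and F11r, with omeprazole rats highest (0.05 ± 0.36). For Cldn7 the low-dose mean (-4.20 ± 0.96) hardly differed from that of omeprazole rats (-4.21 ± 0.95). The low-dose mean of Cldn1 (0.21 ± 0.69) lay within the spread of sham rats (0.01 ± 0.44). Ocln was lowest in untreated rats (-1.75 ± 0.42, SD) and highest in low-dose rats (0.07 ± 0.24), while high-dose rats (-0.73 ± 0.48), omeprazole rats (-0.55 ± 0.32) and sham rats (-0.86 ± 0.30) lay between them and within their spread of each other. Tjp3 followed the order untreated (-0.84 ± 0.64), high-dose (-0.44 ± 0.14), omeprazole (0.13 ± 0.14), sham (0.54 ± 0.39) and low-dose (1.03 ± 0.28). Marveld2 followed the same order, from -5.20 ± 0.54 in untreated rats through -4.88 ± 0.24, -4.12 ± 0.09 and -3.95 ± 0.36 to -3.63 ± 0.28. In both, untreated and high-dose rats were neighbours within their spread, as were omeprazole and sham rats.

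Tjp1 was read by 2 probes. The second probe, taken to lie in the coding sequence, was at -3.22, -2.51, -4.59 and -2.93 in untreated rats, against -1.11, -2.07, -1.56 and -2.29 in sham rats. The groups did not overlap, and in a limma fit over all 19914 probes kept it fell by 1.56 ± 0.37 (SE, n = 4 and 4, adjusted p = 0.00509), compared with 0.74 for the 3′-end probe in the fit over genes. In low-dose rats it was at -0.93, -0.56 and -1.50 and rose against untreated rats by 2.32 ± 0.40 (SE, adjusted p = 0.000560).

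In high-dose rats the coding-region probe was at -1.14, -1.79, -2.06 and -1.87, above all untreated samples. It rose by 1.60 ± 0.37 (SE, adjusted p = 0.00800), where the 3′-end probe was not called (0.29, 95% interval -0.24 to 0.81). In omeprazole rats it was at -1.15, -0.96, -1.16 and -0.87 and rose by 2.28 ± 0.37 (SE, adjusted p = 0.000245). Against sham rats it was called in none of the 3 drug groups (changes of 0.76, 0.04 and 0.72 for low dose, high dose and omeprazole).

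The difference between the probes was then tested as 1 value per sample, coding-region minus 3′-end, in 4 comparisons chosen after seeing the data. It averaged -3.39 ± 0.54 in untreated rats and -2.58 ± 0.44 in sham rats (SD, n = 4 each), which differed by -0.82 with overlap (two-sided exact permutation test, p = 0.0857, adjusted over 4 comparisons 0.0857). It averaged -2.17 ± 0.20 in low-dose rats (SD, n = 3), higher than in untreated rats by 1.22 (exact p = 0.0571, the smallest that 3 against 4 samples allow, adjusted 0.0761). It averaged -2.08 ± 0.55 in high-dose rats and -1.89 ± 0.21 in omeprazole rats (SD, n = 4 each), higher than in untreated rats by 1.31 and 1.50 (exact p = 0.0286 each, the smallest possible, adjusted 0.0572). No untreated sample overlapped a sample of any drug group in this difference, yet none of the 4 adjusted values passed 0.05.

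**Figure D3:**
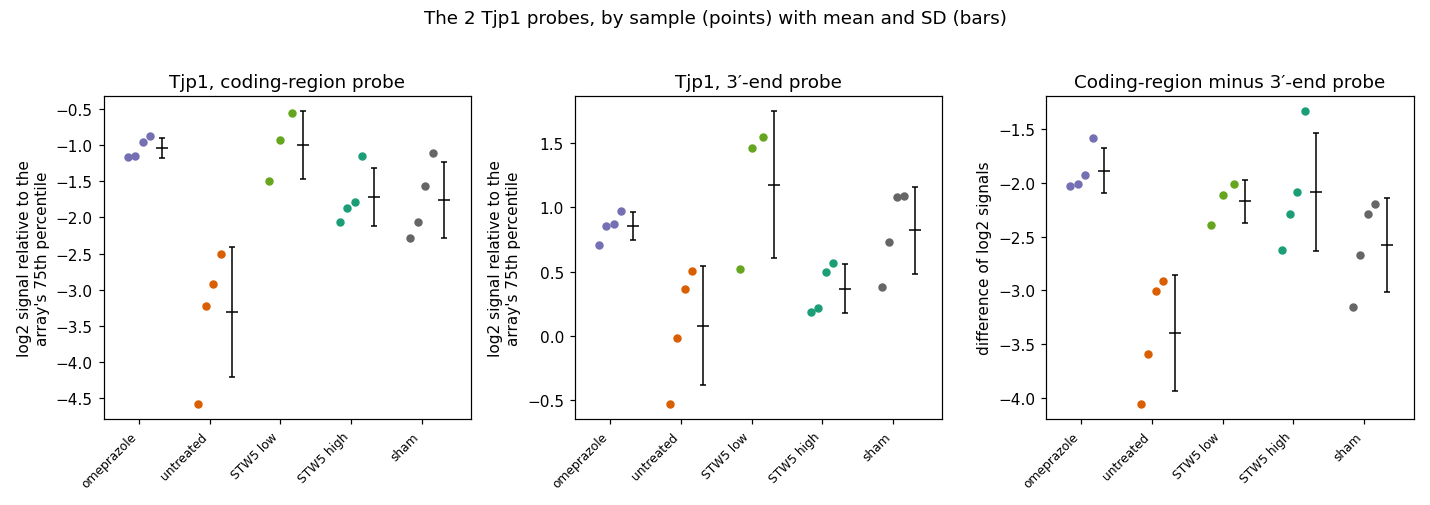
Levels of the coding-region probe and of the 3′-end probe of Tjp1 and their difference (log2 scale) in each of 19 samples, with the mean and SD of each group. In the difference the untreated samples, at -4.06 to -2.91, lie below all samples of the 3 drug groups and overlap the sham samples.

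The 10 genes did not vary alike across the 19 samples. The closest pair was Marveld2 and Tjp3 (Pearson r = 0.956), followed by Marveld2 and Cldn23 (0.894). Cldn7 stood apart, with r between -0.03 and 0.38 against each of the other genes. Among chromosomal neighbours, Ocln and Marveld2 had r = 0.774 and Cldn3 and Cldn4 r = 0.420. These values describe 19 samples that share group differences and array scaling. The mean of the 10 centred genes was most like Mfsd6 (r = 0.983), Emp2 (0.981), Fut1 (0.974), Ces2i (0.974) and Prom2 (0.971) outside the lists used here. These 5 were picked for that likeness, and the values only describe it.

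Other junction genes were taken from lists. Of 10 measured claudins outside the set, 0 were called in untreated rats against sham rats by limma and 0 had an unadjusted p under 0.05, with a median change of 0.04. Cldn2, a claudin that forms cation pores, differed by 1.33 ± 0.82 (SE, adjusted p = 0.223), Cldn17 by -0.73 ± 0.44, Cldn22 by -0.63 ± 0.36 and Cldn12 by -0.28 ± 0.18. Among 8 other membrane proteins, Clmp, an adhesion molecule of the same family as the coxsackievirus receptor, rose by 1.38 ± 0.29 (SE, adjusted p = 0.00245). Crb3, which encodes an apical polarity protein, fell by 0.90 ± 0.30 (SE, adjusted p = 0.0273). Lsr, for a tricellular junction protein, differed by -0.57 and Jam2 by 0.54, neither called.

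Of the cytoplasmic plaque and polarity genes 9 of 18 fell and 1 rose in untreated rats, with a median of -0.68, and 18.3% of all genes fell. Pard3, for a polarity scaffold, fell by 1.15 ± 0.19 (SE, limma adjusted p = 0.000513), Afdn, for the nectin-binding afadin, by 1.20 ± 0.24 (SE, adjusted p = 0.00163) and Pals1, for a Crumbs partner, by 0.46 ± 0.10 (SE, adjusted p = 0.00298). Arhgef2, for a guanine nucleotide exchange factor held at the junction, rose by 1.05 ± 0.23 (SE, adjusted p = 0.00267). In low-dose rats 11 of these 18 genes rose and 1 fell against untreated rats, in omeprazole rats 8 rose and 1 fell, and in high-dose rats 0 were called by limma. Of all genes 21.7% rose at the low dose and 15.1% under omeprazole.

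Genes of the other cell contacts also fell in untreated rats, 3 of 10 of the adherens junction and 5 of 8 of the desmosome. Falls made up 18.3% of all genes tested. Cdh1, for E-cadherin, fell by 1.11 ± 0.34 (SE, limma adjusted p = 0.0187), Jup, for plakoglobin, by 1.01 ± 0.28 (SE, adjusted p = 0.0120) and Nectin4, for a cell adhesion molecule, by 1.45 ± 0.33 (SE, adjusted p = 0.00339). The desmosomal genes Dsp, Perp and Pkp1 fell by 1.53 ± 0.36, 1.02 ± 0.25 and 1.09 ± 0.27 (SE).

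Of 13 measured transcription factors that act on junction genes, 8 fell and 2 rose in untreated rats, where 18.3% of all genes fell. Grhl2 and Grhl3, for Grainyhead-like activators of epithelial junction genes, fell by 1.40 ± 0.28 (SE, limma adjusted p = 0.00173) and 1.16 ± 0.23 (SE, adjusted p = 0.00162). Snai1 and Zeb2, for repressors known to bind E-boxes of epithelial genes, rose by 3.84 ± 0.61 (SE, adjusted p = 0.000410) and 1.37 ± 0.26 (SE, adjusted p = 0.00116). Snai1 was well above background in 3 of 4 sham samples, and both repressors are also known from mesenchymal cells. Against untreated rats, Snai1 was lower by 3.56 and Zeb2 by 1.52 in low-dose rats, Zeb2 by 0.95 in high-dose rats, and Snai1 by 1.71 and Zeb2 by 1.33 in omeprazole rats, all called.

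The regions before the transcription starts were searched for the E-box CACCTG, in either orientation, in the 250 bases of RefSeq promoters of GRCr8. Of the 10 genes 8 had an entry, without Cldn4 and Cldn23. The E-box was found in 5 of the 8, namely Cldn3, Cldn7, F11r, Ocln and Tjp3, and in 15.6% of 27457 promoters. Other motifs were also searched on both strands. The GC box GGGCGG was found in 5 of the 8 (32.4% of all promoters), the CCAAT box CCAAT in 2 (34.3%), the TATA box TATAAA in 1 (13.1%), the AP-1 site TGANTCA in 1 (6.36%), the Grainyhead-like site AACCNGTT in 1 (1.65%) and the KLF4 site GGGTGTGG in 0 (2.84%). Promoters of Cldn3 and Cldn7 are shown because Cldn3 had the largest fall in untreated rats and Cldn7, which was not called, had the most matches. Capitals mark the E-boxes.
Cldn3: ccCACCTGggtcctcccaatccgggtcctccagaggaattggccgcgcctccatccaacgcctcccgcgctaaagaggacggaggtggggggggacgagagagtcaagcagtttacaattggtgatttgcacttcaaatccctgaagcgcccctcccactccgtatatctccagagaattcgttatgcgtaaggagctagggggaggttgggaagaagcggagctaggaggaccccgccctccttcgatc
Cldn7: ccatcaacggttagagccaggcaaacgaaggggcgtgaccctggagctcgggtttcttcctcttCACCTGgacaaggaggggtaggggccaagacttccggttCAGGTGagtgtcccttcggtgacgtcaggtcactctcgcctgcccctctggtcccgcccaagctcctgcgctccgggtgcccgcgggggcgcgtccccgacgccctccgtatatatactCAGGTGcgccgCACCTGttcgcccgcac
The Cldn3 stretch is chr12:27346548-27346797 on the minus strand and the Cldn7 stretch chr10:55188420-55188669 on the plus strand. Counted from the start site, the E-boxes begin at base -248 in Cldn3 and at -186, -147, -28 and -17 in Cldn7. In Ocln they begin at -137 and -68, in F11r at -130 and in Tjp3 at -19. The windows of Marveld2, Tjp1 and Cldn1 held no E-box. For Ocln, Tjp1 and Tjp3 the start used lies inside the gene range given above. The Tjp1 window is chr1:128325361-128325610 on the minus strand. Other starts of these genes were not searched. A match or its absence describes the letters only, and a part of E-boxes in the changes was not tested.

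Squamous epithelium markers moved in the same direction as the junction genes, and macrophage and monocyte markers in the opposite one. The summed level of 15 squamous epithelium markers, on the log2 scale, ranged from 8.21 to 9.70 in untreated rats, against 8.92 to 10.09 in sham rats. In untreated rats 9 of the 15 fell, against 18.3% of all genes, with a median change of -0.98 over the 15. Among them were the cornified envelope genes Evpl (-1.62 ± 0.37, SE) and Ivl (-1.54 ± 0.45). In low-dose rats the sum ranged from 9.67 to 10.32 and 11 of the 15 markers rose against untreated rats, as did 21.7% of all genes. In high-dose rats it ranged from 8.99 to 9.19 and limma called 0 of 15. In omeprazole rats it ranged from 9.59 to 9.96 and 10 of 15 rose, as did 15.1% of all genes. At the high dose 8 of 15 were lower than at the low dose (13.2% of all genes), with a median of -1.23. Between high-dose and omeprazole rats limma called 0 of 15. In 9 of 15 every high-dose sample lay below every omeprazole sample, against 10.7% of all genes. All 15 markers on the array passed the filter on dim probes.

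All 8 macrophage and monocyte markers rose in untreated rats against sham rats, by a median of 2.91. Their summed level ranged from 5.71 to 7.26 in untreated rats, 2.45 to 3.79 in low-dose rats, 4.48 to 5.51 in high-dose rats, 3.25 to 4.21 in omeprazole rats and 2.57 to 4.30 in sham rats. All 8 fell in low-dose and in omeprazole rats against untreated rats, and 2 fell in high-dose rats. Calls in either direction made up 38%, 27.5% and 8.61% of all genes in these 3 comparisons. Endothelial markers, which could carry junction RNA of their own, rose at 5 of 9 genes in untreated rats, while Cldn5, the claudin of endothelium, differed by 0.04. Of 12 markers of simple or glandular epithelium 0 were called by limma, and Krt7, Krt19, Krt20 and Epcam differed by 1.49, 0.87, 0.81 and -0.61. Neutrophil markers rose at 4 of 6 genes, T cell markers at 5 of 6, platelet markers at 1 of 3 and fibroblast markers at 1 of 6. The platelet and fibroblast counts thus rest on 1 gene each. Of the muscle markers 4 of 8 skeletal and 2 of 5 smooth muscle genes fell, against 18.3% of all genes. Over all genes 33.7% were called in untreated against sham rats, and 45.77% of these calls were rises. In low-dose rats 5 of 6 fibroblast and 7 of 9 endothelial markers fell against untreated rats (medians -1.91 and -1.35). In omeprazole rats 1 of 6 and 3 of 9 fell, and in high-dose rats limma called 0 of either. At the high dose 5 of 6 and 6 of 9 were higher than at the low dose (medians 1.81 and 1.27), where 23.7% of all genes were called. The part of the cell types named here in the results for the junction genes was not tested.

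**Figure D4:**
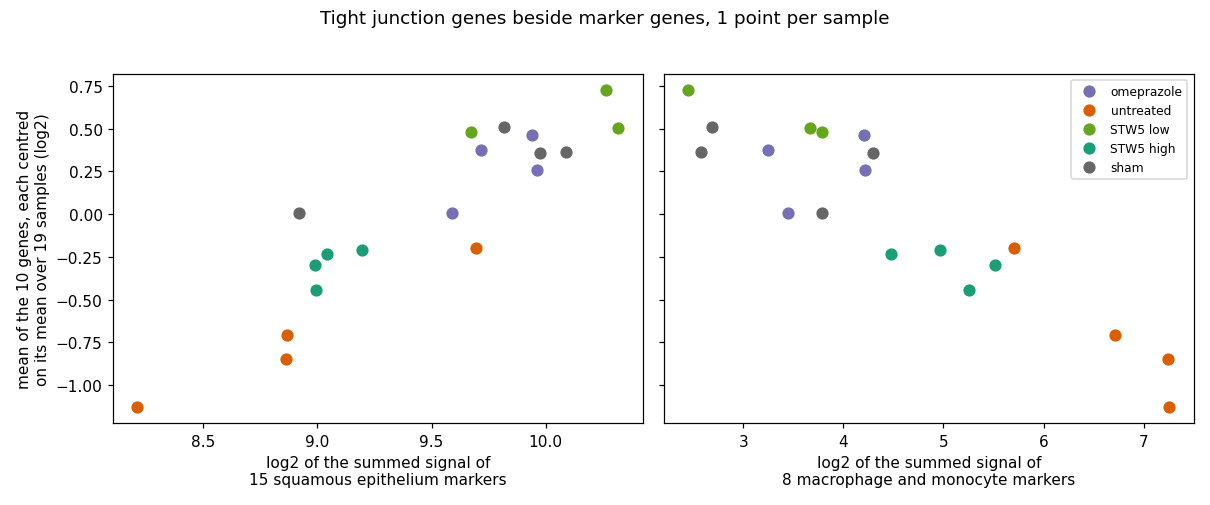
Mean of the 10 centred junction genes (log2) in each of 19 samples against the log2 summed signal of 15 squamous epithelium markers (left) and of 8 macrophage and monocyte markers (right). Untreated samples lie at -1.13 to -0.20, and 3 of them have the lowest squamous sums, while low-dose samples lie at 0.48 to 0.73, a range that 1 sham sample (0.51) shares.

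Leaving out sham replicate 4 left all 7 genes called in untreated rats against sham rats. Leaving out sham replicate 2 and omeprazole replicate 2 together gave 6 there, without Tjp1, and 5 in omeprazole rats against untreated rats, without Tjp1 and Cldn4.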

How the data were processed

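Total RNA was labelled with Cy3, per the labels' protocols. The authors' scanner files hold an intensity per feature, background-subtracted by Agilent Feature Extraction 10.7.3.1, per the file headers, and not scaled between arrays. A ratio, with a column median of 1, fills the authors' deposited value table, which served as an alternative. In 8 of its 20 columns the values are those of the other STW5 dose's array.

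The 10 genes, the lists and the averaging of 2 near-identical low-dose arrays were chosen with earlier results of these data known. Outlier spots were dropped, log2 signals averaged per probe, and each array's 75th percentile over 58717 features was subtracted. Probes well above background in at least 50% of spots on at least 4 arrays were kept, with the brightest per gene (limit for near-identical arrays: ratio 1.5). One limma model (version 3.58.1 in R 4.3.3, with the data.table package, version 1.17.8) covered all 5 groups with 14 residual degrees of freedom, and genes with a Benjamini-Hochberg adjusted p under 0.05 over 12849 genes were called. On simulated data 51% of genes changed by log2 1 and 87% changed by log2 2 were recovered for untreated against sham. Far fewer genes were changed there than the 33.7% called in the data, which makes the adjusted threshold stricter in the simulation. These shares therefore do not give the recovery in the reported fit. Replicates are 4 animals per group, per the labels, and their number limits precision. All 10 genes are named, and from each list up to 4 genes with the smallest adjusted p in untreated against sham. Same-numbered arrays of low and high dose correlated weakly in their deviations (r 0.12 to 0.24 in 4 pairs). Of these pairs 2 share the near-identical low-dose arrays. Single same-numbered pairs of other groups reached r = 0.58, and differently numbered pairs were not compared, so a pairing of the samples is not established. The reported model did not pair samples, and a replicate block was fitted only as an alternative. Alternatives changed the background correction, scaling, filter, probe rule, samples fitted, weights and replicate block. Alternatives added after seeing the data were a floor on dim signals, leaving out sham and omeprazole replicate 2, and the tests between the Tjp1 probes. Permutation tests used SciPy 1.17.1 and figures matplotlib 3.10.9 (Python 3.11.15, pandas 2.3.3). Probe coordinates are rn4 as in the files, and gene positions and promoters are from RefSeq for GRCr8. Blood samples that the study also took were not analysed here. The results of 1 further companion list are not reported here.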

Additional observations from a re-analysis of the deposited data

Results flagged for a closer look

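In 6 of 40 groups of 4 samples the lowest or highest sample lay further from the rest than Dixon's 95% limit allows, while chance gives about 1 in 20. For Tjp3, omeprazole replicate 1 was lowest at -0.0772, against 0.19 to 0.20 in the other samples of that group. For Cldn3, high-dose STW5 replicate 2 was highest at -0.7068 and omeprazole replicate 4 highest at 0.4345, with the nearest samples at -1.42 and -0.56. For Cldn4, sham replicate 4 was lowest at 2.2443 (nearest 2.63), and for Cldn23 the same sample was lowest at -1.0146 (nearest -0.30). This sham sample also had the highest summed level of simple or glandular epithelium markers and the lowest of squamous markers in its group, and the part of either was not tested. For Cldn7, sham replicate 1 was lowest at -5.4497 (nearest -3.99).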

How the results depend on the processing

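The counts of called junction genes in untreated against sham and in omeprazole against untreated stayed within 1.5 times the reported 7 under all alternatives run (6 to 7 and 5 to 8), and so did low dose against untreated except in the authors' value table, where 1 was called. That 1 gene compares with 9.04% of all genes called. In that table, whose STW5 columns carry the other dose, 8 junction genes were called in high dose against untreated (47.9% of all genes). Called there were also 3 in low dose against sham (11.9%), 0 in high dose against sham (0%) and 3 in high dose against omeprazole (19%). High against low dose reversed there for Cldn23 (1.57), Cldn4 (1.12), F11r (0.71), Marveld2 (1.43), Ocln (1.00), Tjp1 (1.01) and Tjp3 (1.62). Low dose against sham reversed for Cldn23 (-1.15), Marveld2 (-1.04) and Tjp3 (-1.09), high dose against sham for Marveld2 (0.38) and Tjp3 (0.53), and high dose against omeprazole for Marveld2 (0.75), Ocln (0.90) and Tjp3 (1.13). With array weights 3 junction genes were called in low dose against sham (19.1% of all genes) and 5 in high dose against sham (52.7%). That fit called 0 in high dose against untreated (12.7%), 1 in omeprazole against sham (26.3%) and 4 in high dose against omeprazole (17.4%). Sham replicate 3 had the largest weight in it, 9.23. With only the 2 groups compared the counts were 4, 0 and 3 in high dose against sham, untreated and omeprazole. Of all genes 7.62%, 2.25% and 9.06% were called there. The mean over probes gave 2 in high dose against untreated, against 8.44% of all genes. The cause was not tested. Leaving out 1 replicate gave 2 to 6 in high against low dose, 0 to 3 in high dose against sham and 0 to 1 in high dose against untreated. Over all groups 19 of 40 same-numbered pairs of arrays had r over 0.1, and all 4 pairs did in high against low dose and in no other comparison. A replicate block, fitted on all 20 arrays as 20 samples, gave 6 in high against low dose, as without the block. In the other comparisons the block gave 7, 8, 1 and 8 in untreated against sham and in low dose, high dose and omeprazole against untreated, and 0, 3, 0 and 0 in low dose, high dose and omeprazole against sham and high dose against omeprazole; on the 20 arrays without it 7, 7, 1, 7, 0, 3, 0 and 0 were called. The median change of all genes in high against low dose was -0.27 with array-median scaling and -0.27 with normexp correction, against -0.15 as reported, and in omeprazole against sham -0.19 with array-median scaling against 0.01. Higher genes made up 69.1%, 40.9% and 18.5% of all calls with normexp in low dose against untreated, high dose against sham and high against low dose, against 57.1%, 71.9% and 44.4% as reported. The 9 counts of junction genes under both scalings stayed within 1 of those reported. Of the values for single genes 1708 stayed on their side of the threshold, called or not, 74 lost a call, 33 gained one and 15 reversed. All 15 reversals came from the authors' value table, whose STW5 columns carry the other dose. That table also gave 7 of the lost and 7 of the gained calls.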
